A study of Rattus norvegicus with 12 samples.

Results

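The genes described here encode splicing factors and heterogeneous nuclear ribonucleoproteins (hnRNPs), measured in the rat hippocampus. Membership went by symbol, under a rule chosen with earlier results of these data known. A gene belonged if its name in the RefSeq gene table started with Snrp, Srsf, Sf3, Prpf or Hnrnp, or with Lsm and a digit. This gave 51 members among 9962 measured genes, all 51 annotated as protein-coding, out of 89 protein-coding rat genes whose symbols match the rule. They comprised 5 Snrp, 9 Lsm, 8 Sf3, 10 Prpf, 8 Srsf and 11 Hnrnp genes.

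The tissue was whole hippocampus of adult males aged 102 to 107 days, from generation 4 of a selective breeding programme, with 1 array per sample. The bred High Responder (bHR) line was selected for much locomotion in an open field new to the rat, and the bred Low Responder (bLR) line for little. The labels name no drug, allele or transgene. Each line had 6 arrays, of which the submitters marked 1 as failing quality control, bHR replicate 1 and bLR replicate 5, so that 5 per line entered the comparisons. The labels do not say which rats were related. Values are log2 expression per gene, and the level of one gene's probes cannot be set against the level of another's.

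Splicing removes introns from nuclear transcripts. It is carried out by small nuclear ribonucleoproteins (snRNPs), in which a short RNA is wrapped by a ring of Sm or Lsm proteins, together with the SF3 proteins that clamp the branch point and the PRPF proteins that assemble and drive the catalytic centre. SR proteins, the products of the Srsf genes, mostly promote the use of nearby exons, while many hnRNPs repress exons and also bind mRNA for export, stability and translation. Neurons use alternative splicing heavily, including in transcripts of ion channels, receptors and synaptic adhesion molecules.

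As a check of the tissue, 7 of 8 listed markers of hippocampal neurons were measured. In log2 units the bHR and bLR means of Snap25 were 11.68 and 11.70, of Nrgn 11.41 and 11.54, of Prox1 7.22 and 7.42, and of Camk2a 5.20 and 5.13. Of these 7 markers 1 had a higher mean in bHR (median difference -0.071), against 9 of 10 choroid plexus markers (median 0.14), whose average level ran from 5.34 to 6.16 in bHR and from 5.17 to 5.89 in bLR. Single choroid markers varied more than this average. Ttr ran from 5.34 on bLR replicate 1 to 11.06 on bHR replicate 5 and differed by 1.91 between lines. Enpp2 differed by 0.54, and the other choroid markers by -0.038 to 0.27. Of 8 oligodendrocyte markers 6 had a higher mean in bHR, of 7 astrocyte markers 6, of 5 endothelial markers 3 and of 8 microglial markers 2. The part of cell composition in the values below was not tested, and in bulk tissue fewer cells of a type and less RNA per cell cannot be told apart. The signal of the beta-actin control probes nearer the 5′ end, relative to those at the 3′ end, was lowest on bLR replicate 3 (-3.65), bLR replicate 2 (-2.89) and bHR replicate 6 (-2.30), against -1.95 to -1.36 on the other passing arrays.

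Whether the selected lines differ in expression of these genes was tested first. None of the 51 members passed an adjusted p of 0.05 with limma (smallest adjusted p 0.992), as was true of all genes (0% called). At an unadjusted p under 0.05 there were 0 members with a higher mean in bHR, against 1.1% of all genes, and 2 with a lower mean, against 1.84% of all genes. These were Snrpb2 and Hnrnpa1, so that 2 of 51 members lay under that p in either direction, against 2.94% of all genes. The mean was lower in bHR for 32 of 51 members (62.7%) and for 49.6% of all genes, and higher for 19, against 50.4% of all genes, and the median difference was -0.018 over the members and 0.00078 over all genes. Among genes with a signal above the median gene 55.9% were lower in bHR, and among the 25% with the highest signal 59.2%. Leaving out 1 array gave 26 to 31 members lower in bHR and a median between -0.036 (without bHR replicate 6) and -0.0032 (without bLR replicate 6). Without bLR replicates 2 and 3 and bHR replicate 6 together, 34 of 51 members were lower, against 43.4% of all genes. The medians were then -0.040 over the members and 0.0099 over all genes. With all 12 arrays 31 of 51 members were lower, against 43.6% of all genes. With the log2 level of Ttr in the fit 28 of 51 members were lower, against 50.8% of all genes. The member median was then -0.014, and 0 members were called.

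**Figure D1:**
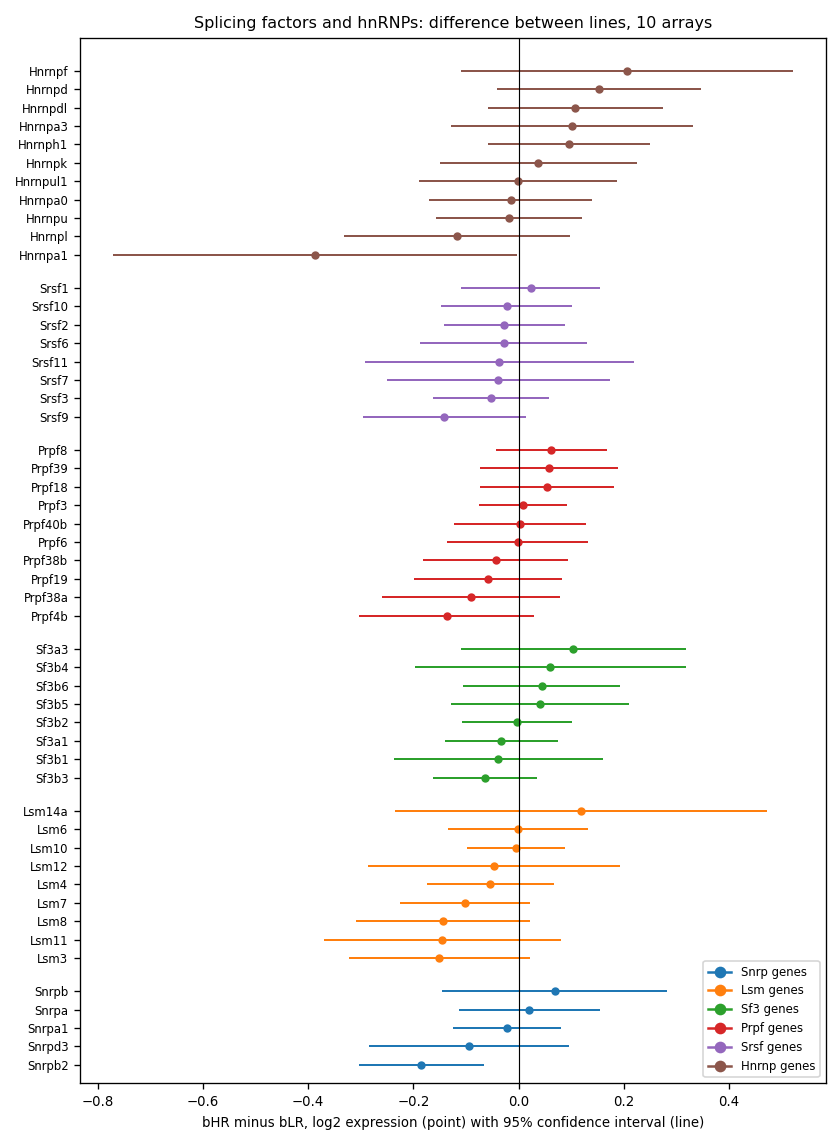
Difference between lines for each of the 51 members, grouped by family: points are bHR minus bLR in log2 expression over 10 arrays and lines are 95% confidence intervals from limma. The intervals of Snrpb2 and Hnrnpa1 lie below 0, that of Hnrnpa1 reaching -0.77, and the other 49 include 0.

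The differences were small. They lay under 0.2 in size on the log2 scale for 49 of 51 members, the exceptions being Hnrnpa1 (-0.39) and Hnrnpf (0.21). The same held for 97.2% of all genes. Under 0.1 lay 36 of 51 members (70.6%), against 84.1% of all genes and 74% of genes with a signal above the median gene. For all 51 members a 2-fold difference, up or down, lay outside the 95% confidence interval, as for 9929 of 9962 genes. The interval lay within 0.5 of zero for 49, which is 96.1% of the members and 97.1% of all genes. The median within-line SD was 0.118 over the members, 0.0958 over all genes and 0.126 over genes with a mean signal above that of the median gene. By probe signal, which is no measure of transcript abundance between genes, 43 members lay above the median gene, and a filter on the lowest 25% would leave out 2.

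Among the snRNP proteins, Snrpb2 stood apart. It encodes the U2 snRNP protein that grips a stem-loop of the U2 RNA. Its log2 level was 5.87, 5.72, 5.83, 5.63 and 5.82 on bHR replicates 2 to 6 and 5.93, 6.07, 5.93, 5.94 and 5.93 on bLR replicates 1, 2, 3, 4 and 6. Every bHR array lay below every bLR array. Non-overlap in that direction was seen for 1 of 51 members and for 0.191% of all genes. Line means were 5.77 ± 0.098 (bHR) and 5.96 ± 0.065 (bLR), each the mean and SD of 5 arrays. The difference was -0.18 (SE 0.053, limma adjusted p = 0.992), and the gene had rank 16 of 9962 by p. The difference stayed between -0.21 and -0.15 when single arrays were left out. On the arrays that failed quality control the level was 5.74 (bHR replicate 1) and 5.99 (bLR replicate 5). Members shifted on those arrays by medians of -0.51 and -0.42, so these values do not bear on the line difference.

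The other 4 Snrp genes showed no such separation. Snrpd3, a subunit of the Sm ring, differed by -0.094 and Snrpa1, which pairs with the Snrpb2 product on the U2 RNA, by -0.022. Snrpa, the close relative of Snrpb2 that binds the U1 RNA, differed by 0.021 (95% interval -0.11 to 0.15), and Snrpb, another Sm ring subunit, by 0.069. Snrpb varied most within lines (SD 0.172), from 5.85 on bLR replicate 2 to 6.42 on bLR replicate 1.

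The promoter of Snrpb2 is shown because it was the 1 member whose lines did not overlap. The window covers 250 bases before to 50 bases after the RefSeq transcription start, at chr3:150852584-150852883 on the + strand of GRCr8. Capitals mark matches to the letters searched, which here were the NRF1 palindrome, matched once, and CCGGAAG, an ETS-family core, matched at 2 places on the opposite strand.
Snrpb2: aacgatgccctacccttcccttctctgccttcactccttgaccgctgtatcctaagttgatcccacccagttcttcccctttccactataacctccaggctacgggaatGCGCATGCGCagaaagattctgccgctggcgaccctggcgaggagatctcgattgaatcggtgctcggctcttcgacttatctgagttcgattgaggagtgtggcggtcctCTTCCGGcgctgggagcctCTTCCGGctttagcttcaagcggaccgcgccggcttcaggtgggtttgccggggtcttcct

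Over the members as a whole, 49 had a promoter window in the RefSeq table, Sf3b2 and Lsm14a being the others. Their median GC content, 60%, was close to that of the 8007 array genes with a window, 60.3%, and above the 52.3% of all 27457 promoters. Of the 5 letter strings searched on both strands, TATAAA was in 6.12% of member windows, 8.49% of array genes and 14.3% of all promoters. CCAAT was in 49%, 37.7% and 37.7%, GGGCGG in 63.3%, 59.1% and 34.9%, and CCGGAAG in 26.5%, 15.5% and 9.22%, in the same order. The NRF1 palindrome was in 2 of 49 members (4.08%), against 1.75% of array genes and 0.932% of all promoters. None of the 5 strings contains another, and a match is a description of the letters only.

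Lsm proteins form rings like the Sm proteins. One ring, with Lsm8, holds the end of the U6 RNA in the nucleus, and a sister ring shares most subunits but acts in the cytoplasm on mRNAs about to be decapped. Of the 9 measured genes 8 had a lower mean in bHR, with a median difference of -0.053, and none passed the test. The mean was lower for 49.6% of all genes and 55.9% of genes with a signal above the median gene. The members with the smallest p were Lsm3, Lsm8 and Lsm7.

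Lsm3 had log2 levels of 6.996, 7.23, 7.17, 7.09 and 7.22 on bHR replicates 2 to 6 and of 7.32, 7.43, 7.44, 7.21 and 7.05 on bLR replicates 1, 2, 3, 4 and 6. The highest 3 values were all bLR, and the lines overlapped through bLR replicates 4 and 6. The difference was -0.15 (SE 0.077), and -0.096 once the beta-actin value entered the fit.

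Lsm8 ran from 6.91 to 7.24 in bHR and from 7.08 to 7.37 in bLR, a difference of -0.14 (SE 0.074). Lsm7 ran from 6.32 to 6.56 in bHR and from 6.46 to 6.603 in bLR, a difference of -0.10 (SE 0.055). Lsm11, part of the U7 snRNP that trims histone mRNAs, differed by -0.14 (SE 0.10) over ranges of 5.69 to 6.18 and 5.85 to 6.29, and by -0.077 without bLR replicate 2 or -0.22 without bHR replicate 6. For each of these 3 genes the lines overlapped.

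Lsm4 differed by -0.053, Lsm12 by -0.046, Lsm10, the partner of Lsm11, by -0.0049, and Lsm6 by -0.0015. Lsm14a, a component of cytoplasmic P-bodies, was the exception with 0.12 (SE 0.16), and it varied most within lines of this family, from 6.62 on bLR replicate 2 to 7.68 on bHR replicate 6. As a family the Lsm genes were highest, relative to their own means, on bLR replicate 3 (0.115 on average), bHR replicate 6 (0.104) and bLR replicate 2 (0.0774), the arrays with the lowest beta-actin 5′ minus 3′ values. They were lowest on bHR replicate 4 (-0.129). Without those 3 arrays, identified by their dap control values, the median Lsm difference was -0.075, and with the beta-actin value in the fit it was -0.038.

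**Figure D2:**
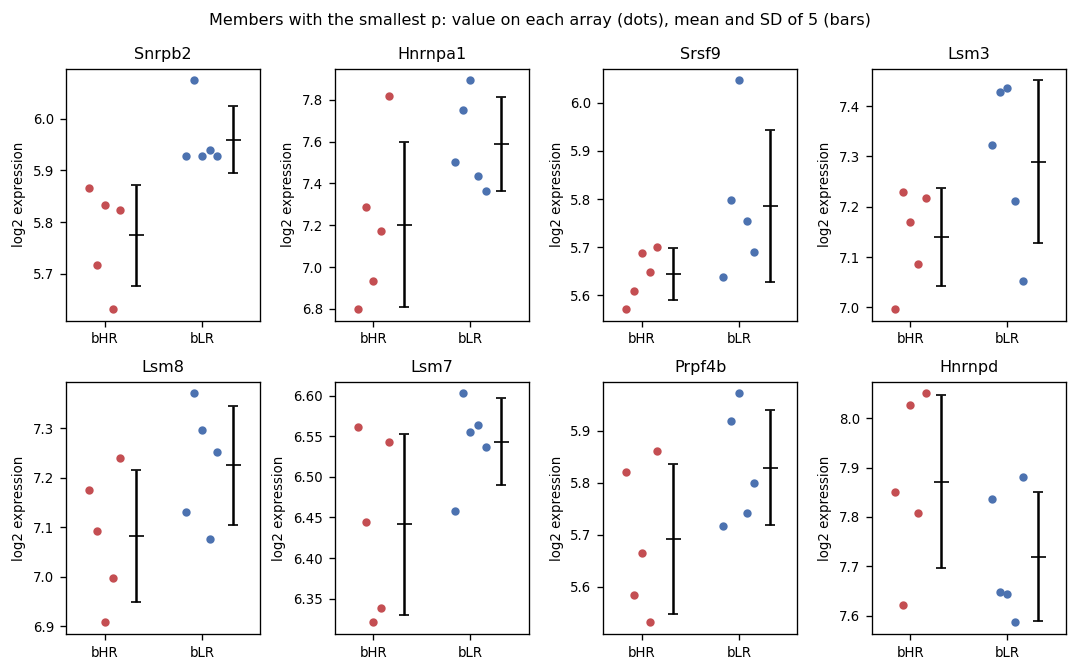
Log2 expression of the 8 members with the smallest unadjusted p on each passing array (dots, 5 bHR and 5 bLR per panel, vertical axes not starting at 0), with the mean and SD of each line (bars). Snrpb2 separates the lines, with all bHR arrays at or below 5.87 and all bLR arrays at or above 5.93, and the other 7 overlap.

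The SF3 genes encode the U2-bound proteins that recognise the branch point. Of 8 genes the mean was higher in bHR for 4 and lower for 4 (median 0.019), and none passed. Sf3b3 had the smallest p, with a mean of 6.42 (SD 0.037) over 5 bHR arrays and 6.48 (SD 0.076) over 5 bLR arrays, which differed by -0.064 (SE 0.044). The highest value was 6.61 on bLR replicate 1, and without that array the difference was -0.033. Sf3b1, which contacts the branch point RNA directly, differed by -0.038 (95% interval -0.24 to 0.16). Sf3b4 varied most, from 8.02 on bHR replicate 6 to 8.61 on bHR replicate 2 and bLR replicate 4, with a difference of 0.060. Sf3a3, Sf3b5 and Sf3b6 differed by 0.10, 0.040 and 0.044, and Sf3a1 and Sf3b2 by -0.033 and -0.0031.

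Of the 10 PRPF genes the mean was higher in bHR for 5 and lower for 5 (median 0.00071), and none passed. Prpf8, the scaffold of the catalytic core, was among the steadier members, with 9.23, 9.14, 9.20, 9.09 and 9.31 on bHR replicates 2 to 6 and 9.13, 9.15, 9.16, 9.05 and 9.17 on bLR replicates 1, 2, 3, 4 and 6. The lines interleaved, and the difference was 0.062 (SE 0.047), or 0.033 without bHR replicate 6. Prpf4b, a kinase that phosphorylates spliceosomal proteins, ran from 5.53 to 5.86 in bHR and from 5.72 to 5.97 in bLR and differed by -0.14 (SE 0.075). Prpf38a, a spliceosome protein that joins before activation, differed by -0.090, within -0.14 (without bLR replicate 1) to -0.055 (without bLR replicate 3) when 1 array was left out, -0.057 without bHR replicate 5 and -0.14 without bHR replicate 6, and had the largest within-line SD of the family, 0.131. Prpf19, a ubiquitin ligase of the spliceosome, differed by -0.059, Prpf38b by -0.044 and Prpf6 by -0.0015. Prpf39, Prpf18, Prpf3 and Prpf40b differed by 0.059, 0.054, 0.0091 and 0.0030.

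Of the 8 SR protein genes 7 had a lower mean in bHR (median -0.032), and none passed. A lower mean was found for 49.6% of all genes and 55.9% of genes with a signal above the median gene. Srsf9 had the smallest p, with log2 levels of 5.57, 5.61, 5.69, 5.65 and 5.70 on bHR replicates 2 to 6 and 5.64, 5.80, 6.05, 5.76 and 5.69 on bLR replicates 1, 2, 3, 4 and 6. The highest 3 values were bLR, and bLR replicates 1 and 6 lay within the bHR range. The difference of -0.14 (SE 0.070) was -0.076 without bLR replicate 3 and -0.082 once the beta-actin value entered the fit. The exception in sign was Srsf1, a founding member of the family, at 0.023 (95% interval -0.11 to 0.15). The differences of Srsf2, Srsf3, Srsf6, Srsf7, Srsf10 and Srsf11 lay between -0.053 and -0.023.

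The hnRNPs differed most among themselves. Of 11 genes 6 had a higher and 5 a lower mean in bHR (median 0.037), and none passed. Without the 3 arrays with the lowest dap values the median was -0.033, and with all 12 arrays, the failed ones included, it was -0.16. Hnrnpa1 encodes an abundant repressor of exons that shuttles between nucleus and cytoplasm. Its log2 level was 6.80, 7.29, 6.93, 7.17 and 7.82 on bHR replicates 2 to 6 and 7.50, 7.75, 7.89, 7.44 and 7.36 on bLR replicates 1, 2, 3, 4 and 6. All bHR arrays but replicate 6 lay below all bLR arrays. Line means were 7.20 ± 0.40 (bHR) and 7.59 ± 0.22 (bLR), each the mean and SD of 5 arrays, and the difference was -0.39 (SE 0.17, limma adjusted p = 0.992).

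For Hnrnpa1 the difference ran from -0.54 (bHR replicate 6 left out) to -0.29 (bHR replicate 2 left out), and it was -0.25 once the beta-actin value entered the fit. Its within-line SD of 0.321 was the widest of the 51 members. The RefSeq table also names 50 Hnrnpa1 pseudogenes. Whether its probes match any of them was not tested, as probe sequences were not used here, and its value is uncertain to that extent. The next highest counts were 10 for Srsf3, 7 for Hnrnpk and 7 for Srsf7.

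Hnrnpd, which binds AU-rich elements in mRNA tails, pointed the other way, with 7.85, 7.62, 8.03, 7.81 and 8.05 on bHR replicates 2 to 6 and 7.84, 7.65, 7.64, 7.59 and 7.88 on bLR replicates 1, 2, 3, 4 and 6. The ranges overlapped widely and the difference was 0.15 (SE 0.088), or 0.059 without the 3 arrays with the lowest dap values. Its relative Hnrnpdl differed by 0.11 (SE 0.075), and Hnrnpf and Hnrnph1, which bind runs of G, by 0.21 (SE 0.14) and 0.096 (SE 0.069). Without those 3 arrays Hnrnpf was -0.012, Hnrnph1 0.0093 and Hnrnpdl 0.033, and with all 12 arrays Hnrnpdl was -0.16 and Hnrnph1 -0.23. Leaving out 1 array moved Hnrnpf to 0.13 (bLR replicate 2 or bHR replicate 2) or 0.32 (bLR replicate 6). It moved Hnrnpdl to 0.068 (bLR replicate 2) or 0.17 (bLR replicate 6), and Hnrnph1 to 0.042 (bLR replicate 3) or 0.062 (bHR replicate 6). Hnrnpl, which binds CA repeats, differed by -0.12 (SE 0.097), by -0.059 without bLR replicate 3, by -0.069 without bHR replicate 4, by -0.027 with the beta-actin value in the fit and by -0.36 with all 12 arrays. Hnrnpa3, Hnrnpk, Hnrnpa0, Hnrnpu and Hnrnpul1 differed by 0.10, 0.037, -0.015, -0.018 and -0.00099.

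Genes of the pathway outside the naming rule were tested in the same fit. Of 130 such genes listed, which cover other snRNP proteins, branch point and helicase factors, the exon junction complex, splicing regulators, their kinases and snRNP assembly, 90 were measured. None passed (0% of all genes called), and at an unadjusted p under 0.05 limma gave 0 of them higher in bHR and 2 lower, beside 1.1% and 1.84% of all genes. A lower mean was found for 58 of 90 (64.4%), against 49.6% of all genes and 59.2% of the 25% with the highest signal, with a median of -0.030. The count was 48 with bLR replicate 3 left out and 67 with bLR replicate 4 left out, with medians from -0.061 (without bHR replicate 6) to -0.0094 (without bLR replicate 3). With the beta-actin value in the fit 44 of 90 were lower and the median was 0.0014. Snrnp27, a protein of the tri-snRNP, had a mean of 7.55 (SD 0.093) over 5 bHR arrays and 7.69 (SD 0.051) over 5 bLR arrays, which differed by -0.14 (SE 0.050). Puf60, which helps U2 to bind, differed by -0.095 (SE 0.042). Eif4a3, the RNA clamp of the exon junction complex, differed by -0.17, Usp39, a tri-snRNP factor, by -0.10 and Ddx23, the helicase of the U5 snRNP, by 0.11. Without bLR replicate 3 Usp39 was -0.054, and without bLR replicate 2 Ddx23 was 0.067. Among the 7 measured kinases 1 had a lower mean, with a median of 0.047.

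Expression was next set against the beta-actin 5′ minus 3′ value of each array, with line as a term. A negative slope means a higher level where 5′ signal was lost. Of the 51 members 7 were called at an adjusted p of 0.05 with limma, 2 with a positive and 5 with a negative slope, where 13.3% of all genes were called, 5.28% positive and 7.98% negative. The share of members called was thus near that of all genes. Genes called came from the Lsm, Sf3, Srsf and Hnrnp families, and 0 of 5 Snrp and 0 of 10 Prpf genes were called.

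Lsm12, an RNA-binding protein outside the snRNP rings, had the smallest p. Its log2 level was 6.21 on bLR replicate 3, 5.99 on bLR replicate 2 and 5.95 on bHR replicate 6, and between 5.63 and 5.93 on the other 7 arrays. The slope was -0.25 per log2 unit of the beta-actin value (SE 0.033, limma adjusted p = 0.00078). Hnrnpl likewise rose with the loss of 5′ signal, with a slope of -0.20 (SE 0.039, adjusted p = 0.0058), from 8.14 on bHR replicate 4 to 8.67 on bLR replicate 3.

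Hnrnpa3, a relative of Hnrnpa1, fell instead. It stood at 8.22 on bLR replicate 3 and 8.24 on bLR replicate 2, against 8.39 to 8.71 on the others, with a slope of 0.22 (SE 0.039, adjusted p = 0.0039). Sf3a3, a subunit of SF3a, also fell, from 6.36 on bHR replicate 4 to 5.85 on bLR replicate 3, with a slope of 0.20 (SE 0.040, adjusted p = 0.0079). These 4 members thus moved in opposite directions across the same arrays.

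The call of Sf3a3 was lost without bLR replicate 3 (adjusted p = 0.0554 by limma). The other 3 called members had negative slopes. They were Srsf9 (-0.13, adjusted p = 0.024), Srsf11 (-0.22, adjusted p = 0.027) and Hnrnpa1 (-0.30, adjusted p = 0.047), all by limma. With the GAPDH 5′ minus 3′ value in place of beta-actin, 5 of the 7 calls were kept, against 9.3% of all genes called, and Srsf11 (limma adjusted p = 0.117) and Hnrnpa1 (0.177) were lost. The Hnrnpa1 call was also lost with median centring (limma adjusted p = 0.0551) and repeated quantile normalization (0.0656), and in 8 of the 10 fits that left out 1 array (0.0522 to 0.0861). The call of Srsf11 was lost without bLR replicate 1 (0.0725) or 2 (0.0652) and that of Srsf9 without bLR replicate 1 (0.0818) or 3 (0.424). Srsf11, an SR-related protein, stood at 7.08 on bHR replicate 6, 6.95 on bLR replicate 2 and 6.90 on bLR replicate 3, against 6.52 to 6.64 on the other 7 arrays. Leaving out 1 array kept the direction of all 7 called members and kept between 4 and 7 of the calls, fewest without bLR replicate 1 or bLR replicate 3. Without the 3 arrays with the lowest dap values, a setting chosen after the data were seen, 0 members and 0% of all genes were called. The arrays left spanned only -1.95 to -1.36 in the beta-actin value. Of the 7 slopes 6 kept their direction. They were 0.59 for Hnrnpa3, 0.46 for Sf3a3, -0.54 for Hnrnpl, -0.54 for Hnrnpa1, -0.43 for Lsm12 and -0.13 for Srsf11, while that of Srsf9 was 0.022.

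**Figure D3:**
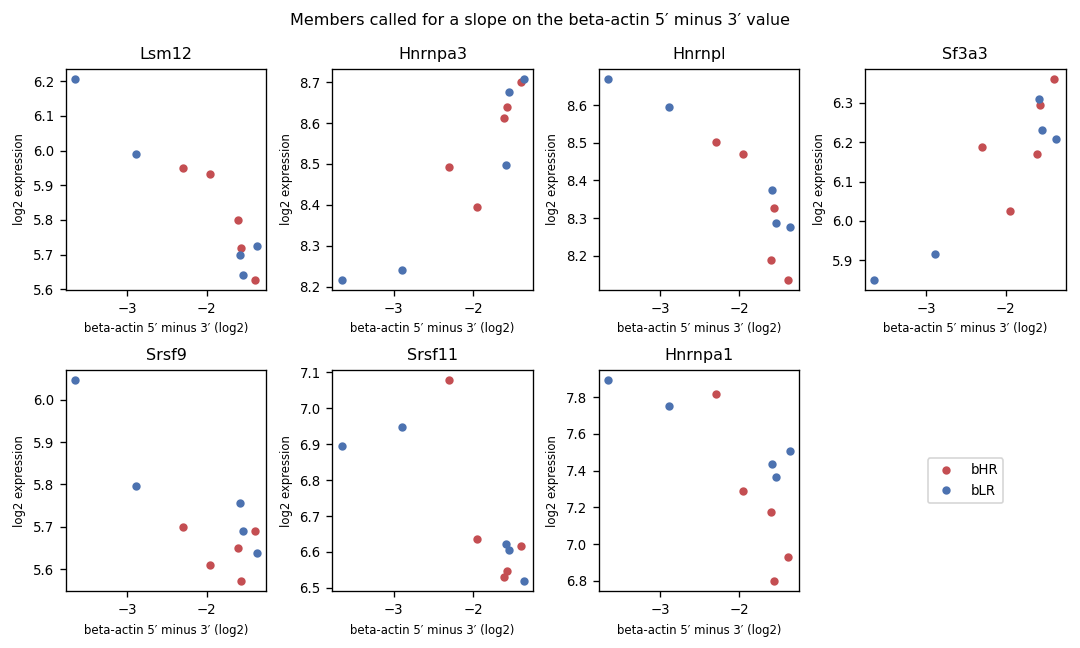
Log2 expression of the 7 members called for a slope, plotted against the 5′ minus 3′ log2 value of beta-actin on the 10 passing arrays (red bHR, blue bLR, axes not starting at 0). Arrays farther left lost more 5′ signal; Lsm12, Hnrnpl, Srsf9, Srsf11 and Hnrnpa1 are higher there, and Hnrnpa3 and Sf3a3 are lower.

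The promoters of the 3 hnRNP genes with called slopes are shown together, since Hnrnpa1 and Hnrnpl rose on the arrays where Hnrnpa3 fell. The windows are the same 300 bases relative to the RefSeq start in GRCr8, at chr7:136253868-136254167 (+ strand) for Hnrnpa1, chr3:80985684-80985983 (+ strand) for Hnrnpa3 and chr1:93228151-93228450 (+ strand) for Hnrnpl. Capitals mark GGGCGG, the GC box, and CCAAT on either strand, and each of the 3 windows holds both strings.
Hnrnpa1: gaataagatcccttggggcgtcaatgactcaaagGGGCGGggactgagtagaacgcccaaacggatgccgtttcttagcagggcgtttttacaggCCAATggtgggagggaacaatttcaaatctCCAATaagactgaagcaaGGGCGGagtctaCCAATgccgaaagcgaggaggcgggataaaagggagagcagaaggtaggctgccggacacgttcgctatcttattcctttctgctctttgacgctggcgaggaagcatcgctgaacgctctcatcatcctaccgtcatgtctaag
Hnrnpa3: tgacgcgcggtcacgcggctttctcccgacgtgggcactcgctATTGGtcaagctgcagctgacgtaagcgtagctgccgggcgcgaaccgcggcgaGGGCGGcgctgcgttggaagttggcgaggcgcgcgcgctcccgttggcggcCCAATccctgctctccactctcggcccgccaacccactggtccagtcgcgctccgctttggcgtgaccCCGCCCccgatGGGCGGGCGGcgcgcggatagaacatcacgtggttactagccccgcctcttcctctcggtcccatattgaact
Hnrnpl: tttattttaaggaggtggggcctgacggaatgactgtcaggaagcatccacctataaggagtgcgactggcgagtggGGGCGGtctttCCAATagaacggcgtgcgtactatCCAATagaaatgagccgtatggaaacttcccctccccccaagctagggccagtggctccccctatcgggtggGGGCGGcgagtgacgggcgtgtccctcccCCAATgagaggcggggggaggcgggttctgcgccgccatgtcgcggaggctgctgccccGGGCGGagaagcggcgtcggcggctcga

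Members varied together to different degrees. As a description over the 10 passing arrays, with line means removed and all genes sharing the same arrays, the median pairwise Pearson r was 0.0535 among the 51 members and 0.0232 among all 9962 genes. It was 0.405 among the 11 hnRNPs (55 pairs), 0.222 among the Lsm genes, 0.198 among the Sf3 genes, 0.0912 among the Srsf genes, 0.065 among the Prpf genes and -0.147 among the 5 Snrp genes. Of the 55 hnRNP pairs 24 had r above 0.5 and 21 had r below 0. With the beta-actin value taken out as well, the median was 0.302 for the hnRNPs, 0.0976 for the Lsm genes, 0.0577 for the Sf3 genes, 0.0722 for the Srsf genes, 0.0204 for the Prpf genes and -0.164 for the Snrp genes. The members together then had 0.0794 and all genes 0.0251, and the other splicing genes went from 0.206 to 0.0902. No comparison was made with genes matched for signal.

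**Figure D4:**
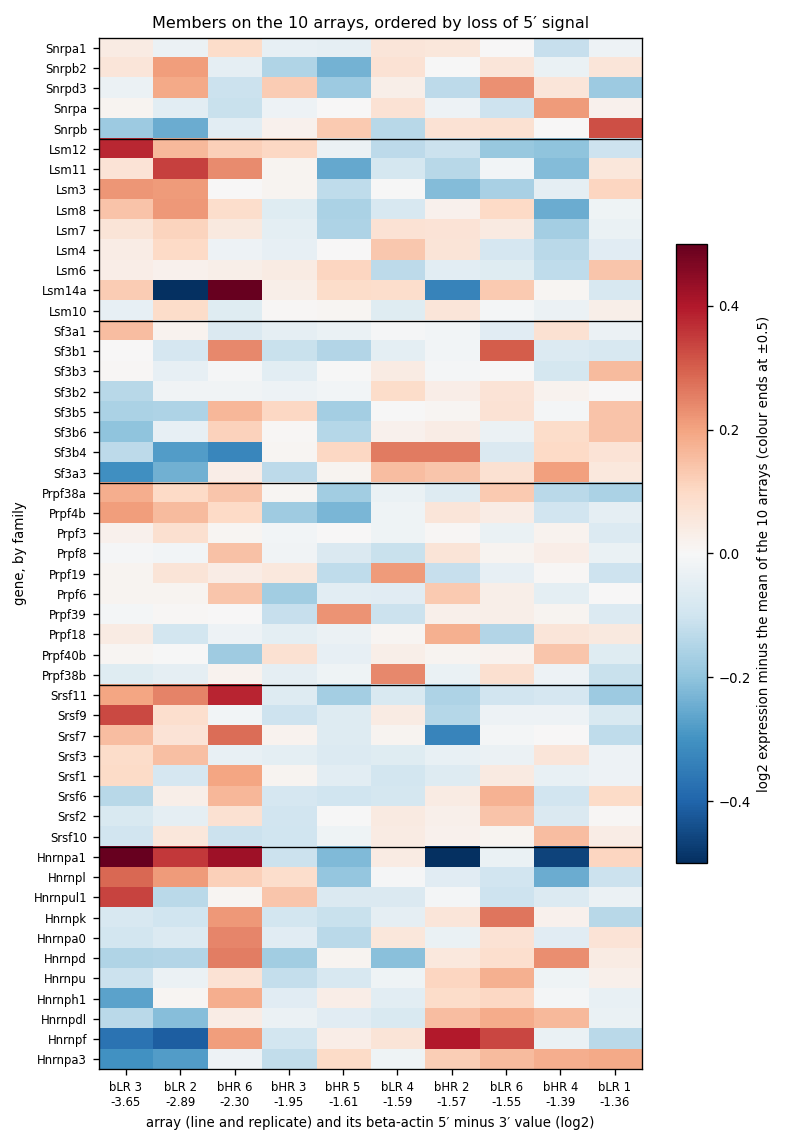
Each of the 51 members (rows, by family) on the 10 passing arrays (columns, ordered by the beta-actin 5′ minus 3′ value printed under each), coloured by log2 expression minus the gene's mean over the 10 arrays. Hnrnpa1, Hnrnpl and Lsm12 are above their means on the 2 leftmost arrays, bLR replicates 3 and 2, where Hnrnpa3, Hnrnpf and Sf3a3 are below theirs.

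Within lines, expression was also set against the locomotor score of each rat, the trait under selection. No member was called with limma, nor was any gene (0% of 9962). At an unadjusted p under 0.05 limma gave 2 members with a positive slope and 1 with a negative one, against 1.68% and 2.44% of all genes. Slopes were positive for 31 of 51 members (60.8%), for 41.3% of all genes, for 47.9% of genes with a signal above the median gene and for 52% of the 25% with the highest signal. The count of positive members was 25 without bHR replicate 6, and 24 when the 3 arrays lowest by dap value were dropped. Hnrnph1 had a slope of 0.11 per 100 beam breaks (SE 0.034). Among bLR rats its level was 8.48, 8.70, 8.76, 8.71 and 8.85 at scores of 319, 362, 495, 503 and 557 beam breaks. Among bHR rats it was 8.74, 8.84, 8.69, 8.78 and 8.93 at 1178, 1219, 1236, 1319 and 1328, so it did not rise steadily. The arrays at 319 and 1328, bLR replicate 3 and bHR replicate 6, had the lowest beta-actin 5′ minus 3′ values of their lines. The Hnrnph1 slope was 0.097 with the beta-actin value in the fit and 0.072 without bLR replicate 3. Srsf6, an SR protein, had a slope of 0.11 (SE 0.035) and Sf3a1, a subunit of SF3a, of -0.065 (SE 0.026), and the adjusted p of all 3 was 0.989. The Hnrnph1 slope was 0.049 and the Sf3a1 slope -0.038 without the 3 arrays with the lowest dap values.

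The arrays that failed quality control held lower levels of most members. On bHR replicate 1 the hnRNPs lay below their mean over the 10 passing arrays for 11 of 11 genes, by a median of -2.49 on the log2 scale, and on bLR replicate 5 for 11 of 11, by -1.49. Hnrnpk, which binds runs of C, was the farthest down on bHR replicate 1, by -3.84, and Hnrnpul1 the least, by -0.29. Most brightly measured genes were lower there too: for the 25% of all genes with the highest means the median was -1.33 on bHR replicate 1 and -0.88 on bLR replicate 5. Of these 2491 genes 2304 (92.5%) were lower on bHR replicate 1 and 2342 on bLR replicate 5. Among all 9962 genes 4584 (46%) and 5217 were lower.

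The families did not share this shift equally. The SR genes had medians of -0.94 and -0.62 on bHR replicate 1 and bLR replicate 5, and the Prpf genes -0.39 and -0.17. The Lsm genes had medians of 0.50 and 0.19, with Lsm11 1.34 above its mean and Lsm4 -1.40 from it on bHR replicate 1. No test was made, since each is a single array, and these arrays entered none of the comparisons above except where all 12 are named.

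**Figure D5:**
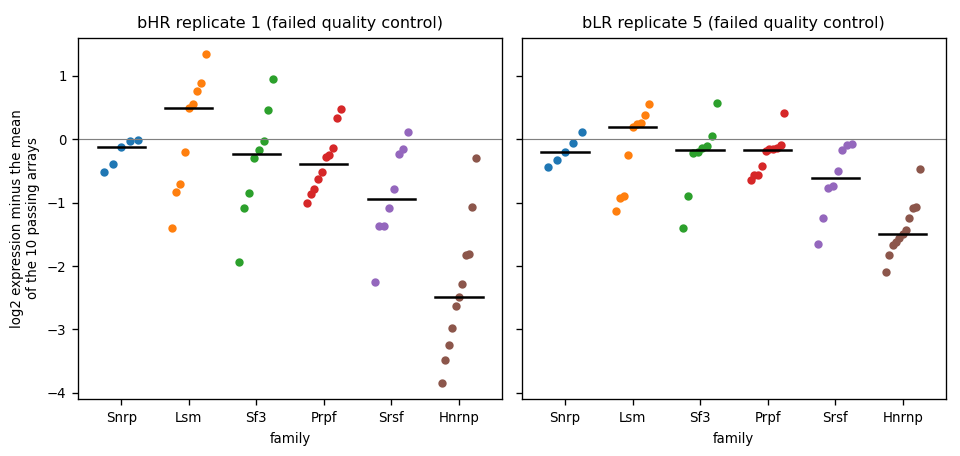
Log2 expression of each member on the 2 failed arrays minus its mean over the 10 passing arrays, by family (dots are genes, black lines are family medians). All 11 Hnrnp genes lie below 0 on both arrays, with medians of -2.49 and -1.49, while the Lsm medians are 0.50 and 0.19.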

How the data were processed

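Hippocampal RNA of 12 rats was measured on Affymetrix RAE230A arrays. The deposited unit is log2: per the submitters' processing notes the authors ran RMA (affy 1.54.0), and per the series' design text they used a custom probe definition (19.0.0) that maps probes to Entrez genes. RMA normalizes by quantiles, which hides any shift common to all genes. Of 10019 probe sets 57 controls were left out and 9962 genes tested; 9831 were named by the RefSeq table (GRCr8), and 0 columns lacked a sample. Array values have no read depth, so 5 arrays per line limit precision. Nothing states that replicates are unrelated, so p-values measure only the spread between these rats.

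All genes went through limma 3.58.1 under R 4.3.3 (lmFit, eBayes, Benjamini-Hochberg over all 9962 genes, call at adjusted p of 0.05), for line, for the beta-actin 5′ minus 3′ value and for the locomotor score per 100 beam breaks centred within line, the latter both with line as a term. The steps were tested on simulated data. Members and lists were chosen with earlier results of these data known. Genes named are the 16 members with the smallest p, members whose lines do not overlap, the smallest p and widest spread per family, the 4 and 3 smallest p of the slopes and the 5 smallest p of the other list; further members are named to account for each family and were chosen after their values were seen. Alternatives varied the arrays, normalization, low-value filter, prior, covariates, gene names and threshold; the fits of both slopes without the 3 arrays with the lowest dap control value, and the correlations with beta-actin taken out, were added after seeing the data.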

Additional observations from a re-analysis of the deposited data

Results flagged for a closer look

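For named genes, each line of 5 arrays was searched for a value far from the other 4 (gap over range above 0.710), 60 groups for 30 genes. Chance alone marks about 1 in 20 groups, and 3 were marked. Snrpb2 on bLR replicate 2 was 6.075, above 5.927 to 5.939 on the other bLR arrays; the difference between lines was -0.16 without it. Srsf11 on bHR replicate 6 was 7.079, above 6.53 to 6.635 on the other bHR arrays, and this array had the lowest beta-actin 5′ minus 3′ value of its line. Usp39 on bHR replicate 3 was 5.799, below 5.899 to 5.93.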

How the results depend on the processing

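No member and no other splicing gene was called for line under any alternative run, an adjusted p of 0.10 included. Leaving out 1 array moved the members with an unadjusted p under 0.05 from 2 to between 1 and 6 (6 without bHR replicate 6, 6.06% of all genes, and 6 without bLR replicate 6, 4.16%), and the other splicing genes from 2 to between 1 and 9 (9 without bLR replicate 1, 4.68% of all genes). For members the count was 1 with all 12 arrays (0.422% of all genes), with the beta-actin covariate (2.61%) and with median centring (2.89%). For other splicing genes it was 0 with all 12 arrays and with the trended and robust prior, and 1 with array weights, with the lowest 25% of genes left out, with quantile normalization repeated and when the 3 lowest arrays by dap value were dropped. With the title number as a replicate block it was 13 members and 19 other splicing genes, beside 14.7% of all genes. The number called was 0. That fit takes the line difference only from the 3 same-numbered pairs of passing arrays. Their bLR arrays include replicates 2 and 3, which had the lowest beta-actin 5′ minus 3′ values (-2.89 and -3.65). The labels do not say what the shared numbers mean, and they were not taken as pairs in the main fit. Deviations of the 3 pairs correlated by -0.334, 0.263 and 0.409, which cannot decide whether those rats were related. Without the 3 low-dap arrays the slope on beta-actin called 0 members, with 6 at an unadjusted p under 0.05 (7.01% of all genes) instead of 17 (27.2%), and the slope on locomotor score gave 1 (4.57%) instead of 3 (4.12%), or 5 with the beta-actin covariate (7.72%). Signs of single genes were followed only for the results that the naming rule picked or that were called. Among these, signs turned with all 12 arrays for Hnrnpdl (-0.16), Hnrnph1 (-0.23) and Lsm11 (0.012). Without the low-dap arrays they turned for Hnrnpf (-0.012) and for the beta-actin slope of Srsf9 (0.022). The cause was not tested. The line differences of Hnrnpk and Hnrnpa3 were not followed. Both lay farther down on failed bHR replicate 1 (-3.84 and -2.28) than on failed bLR replicate 5 (-1.83 and -1.24).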
